A study of Mus musculus with 6 samples.

Results

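Mrps11 and Afg3l1 are 2 nuclear genes for mitochondrial proteins that were measured in the liver of male mice. Mrps11 codes for a component of the mitochondrial ribosome's small subunit, and Afg3l1 for a subunit of a protease of the mitochondrial inner membrane. They were taken by symbol from the authors' table, which pairs 122 of the 45220 features on the array with a gene name. Each of the 2 genes has 1 feature, number 44471 for Mrps11 and number 16633 for Afg3l1. They were chosen by their p-values in an earlier comparison of the same arrays, the smallest of any named gene between extract and control livers. Their group differences are therefore given below as a description, with no test, and no call is drawn from them. Xkr5, an XK-related membrane protein gene, was next in that order, with a difference of 0.92 (SE 0.16) on the log2 scale.

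The extract mice received an aqueous extract of Ziziphus jujuba, the jujube, by gavage (n = 3), and the control mice received water by gavage (n = 3). In both groups the mice were male and 8 weeks old at day 0, ate standard chow, and were given a daily volume of 500 µl over 20 days. The concentration of the extract was 6 mg/mL. Liver was taken from the core of the left lobe, and each mouse was hybridised to 1 array of 1 colour (Cy3). The labels used here give no strain, and they name a separate individual for each array, so n counts mice.

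Mitochondria keep their own ribosomes, which translate the few membrane proteins encoded by mitochondrial DNA, all of them parts of the respiratory chain and the ATP synthase. Their ribosomal proteins are encoded in the nucleus and imported. The bacterial relative of the Mrps11 protein, S11, lies on the platform of the small subunit near the path of the messenger RNA. Afg3l1 belongs to the m-AAA proteases, ATP-driven ring complexes that face the matrix, degrade misfolded membrane proteins and, in yeast and mouse, trim a protein of the large mitochondrial ribosomal subunit before it is assembled. In mouse, Afg3l1 is a working gene, whereas its human counterpart is a pseudogene. Hepatocytes are rich in mitochondria.

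The sequences before the start sites are shown to place the 2 genes, and the arrays measure RNA and not these regions. RefSeq (GRCm38.p6) puts Mrps11 on chromosome 7, head to head with Mrpl46, a gene of the large mitochondrial ribosomal subunit, with 41 bases between the start bases at chr7:78783090-78783130 (plus strand). Afg3l1 lies on chromosome 8, also on the plus strand, and the 100 bases before its start are at chr8:123477762-123477861. Capitals mark the match, on the minus strand, to the letters searched for the factor NRF1, which is known for its sites before nuclear genes of mitochondrial proteins.
Mrpl46 to Mrps11: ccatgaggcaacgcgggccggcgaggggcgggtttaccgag
Afg3l1: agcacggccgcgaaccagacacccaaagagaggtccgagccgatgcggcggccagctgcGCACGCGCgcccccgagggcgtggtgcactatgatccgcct

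Windows of 300 bases, 250 before the start base and 50 from it on, were searched on both strands for 4 motifs in 32851 RefSeq windows. The NRF1 letters GCGCNTGC were found in 9.61% of all windows and at 2 places in that of Afg3l1, the printed one ending 34 bases before the start base and the other beginning 3 bases after it. In the Mrps11 window they were not found. The YY1 letters GCCATNTT, present in 6.05% of windows, were found once for Mrps11, from 107 to 100 bases before its start and so within Mrpl46, and not for Afg3l1. The ETS letters CCGGAAG (8.86% of windows) and the TATA letters TATAAA (13.6%) were in neither. The searched motifs do not overlap each other in these windows. Both windows are GC-rich, at 62.0% for Mrps11 and 64.7% for Afg3l1, where the median window has 52.7%. A match of letters is a description and says nothing of binding in these livers.

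The deposited values are intensities, in arbitrary units, and the number of arrays limits their precision. Between 22.7% and 26.8% of features on an array exceeded 100, and 9434 features did so on all 6 arrays, called bright below. Both genes are among them. Over bright features, the median log2 deviation from the mean of the 6 arrays was -0.13, 0.34 and 0.15 on extract arrays 1, 2 and 3, against -0.20, -0.19 and 0.13 on control arrays 1, 2 and 3. Levels without scaling carry these shifts. The array of extract mouse 1 correlated with the others at no more than 0.959, while the highest correlation of each of the other arrays with another was between 0.981 and 0.985.

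Whether each feature measures the gene named for it could not be settled from these files. Of 9 lists of liver cell type markers, 2 hold a named gene. Cyp4a12a, a male-biased hepatocyte gene, had intensities of 354, 422 and 368 in extract livers, against 197, 190 and 237 in control livers. Fcgr2b, a receptor of sinusoidal endothelium, had 44, 653 and 821 in extract livers and 139, 214 and 807 in control livers, and its groups overlap. The table also names 10 receptor genes of smell, taste and pheromone sensing, not known as liver genes, a list added after their values were seen. Their mean intensities ran from 205.0 to 6685 in extract livers and from 128 to 3731 in control livers, and 9 of the 10 were bright. Of all named features 94.3% were bright, against 20.9% of all features on the array. The share of bright receptor genes thus does not set them apart from the other named genes. Levels that go against the usual tissue of a gene thus occur in the table that names Mrps11 and Afg3l1, and their part in the values of these 2 genes was not tested. Beyond the marker lists, levels that go with the usual tissue of a gene were not sought. Among the named genes Mst1 had the highest means, 15.31 in extract livers and 14.78 in control livers (log2, quantile normalized). RefSeq lists 3 transcripts for each gene, 1 of each being non-coding, and the sources used here do not say which of them a feature detects.

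Mrps11 was lower in extract livers. Its deposited intensity was 1125, 1624 and 1407 in extract mice 1, 2 and 3, against 2850, 3048 and 5266 in control mice 1, 2 and 3. The groups do not overlap, and control mouse 3 stands above the other controls. The mean was 1385 ± 250.2 in extract livers and 3721 ± 1341 in control livers (SD, n = 3 each), so the control level was 2.69-fold that of the extract livers. Over the 9 pairs of 1 extract and 1 control mouse, the control was 1.75-fold to 4.68-fold the extract value, with a median of 2.53-fold.

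After quantile normalization, which gives the 6 arrays one common distribution, Mrps11 lay at 10.39, 10.35 and 10.32 in extract mice 1, 2 and 3 and at 11.69, 11.76 and 12.21 in control mice 1, 2 and 3 (log2 intensity). Both groups of livers lay closer together than without scaling, where the SD of log2 Mrps11 was 0.27 among extract livers and 0.49 among control livers. Their mean was 10.35 ± 0.035 in extract livers and 11.89 ± 0.28 in control livers (SD, n = 3 each), a difference of -1.53 (SE 0.19). The highest extract value was 1.30 log2 units below the lowest control value. Of bright features, 2.20% had a smaller SD among extract livers than Mrps11, and 79.6% had a smaller SD among controls. A choice by small p-value favours genes with a small spread, so nothing is read from these shares. The median SD of a bright feature was 0.22 among extract livers and 0.19 among control livers.

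The rank of Mrps11 within an array needs no scaling and shows the same order. Its intensity exceeded 73.7%, 73.0% and 72.6% of bright features on extract arrays 1, 2 and 3, against 85.8%, 86.4% and 89.4% on control arrays 1, 2 and 3. It was a well-detected feature in every liver, above 94.3% to 97.8% of all features on an array. In bulk liver, less RNA per cell and fewer cells of a type that expresses the gene cannot be told apart.

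Afg3l1 was higher in extract livers. Its deposited intensity was 463, 625 and 476 in extract mice 1, 2 and 3, against 197, 172 and 233 in control mice 1, 2 and 3. The lowest extract value lies above the highest control value. The mean was 521 ± 90.0 in extract livers and 201 ± 30.7 in control livers (SD, n = 3 each), a ratio of 2.60. Over the 9 pairs of mice the extract value was 1.99-fold to 3.63-fold the control value, with a median of 2.68-fold.

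After quantile normalization Afg3l1 lay at 9.08, 8.98 and 8.78 in extract mice 1, 2 and 3 and at 7.86, 7.65 and 7.78 in control mice 1, 2 and 3 (log2 intensity). The mean was 8.95 ± 0.15 in extract livers and 7.76 ± 0.11 in control livers (SD, n = 3 each), a difference of 1.18 (SE 0.15), and the groups were 0.91 log2 units apart at their nearest values. Both SDs were below the median of bright features, and 30.5% of bright features had a smaller SD among extract livers and 19.1% among controls. The choice by small p-value favours this too, so nothing is read from these shares. Afg3l1 exceeded 51.7%, 49.0% and 44.3% of bright features on extract arrays 1, 2 and 3, against 21.2%, 15.0% and 18.9% on control arrays 1, 2 and 3. Its control values lie near the limit of 100 used here for bright features.

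**Figure D1:**
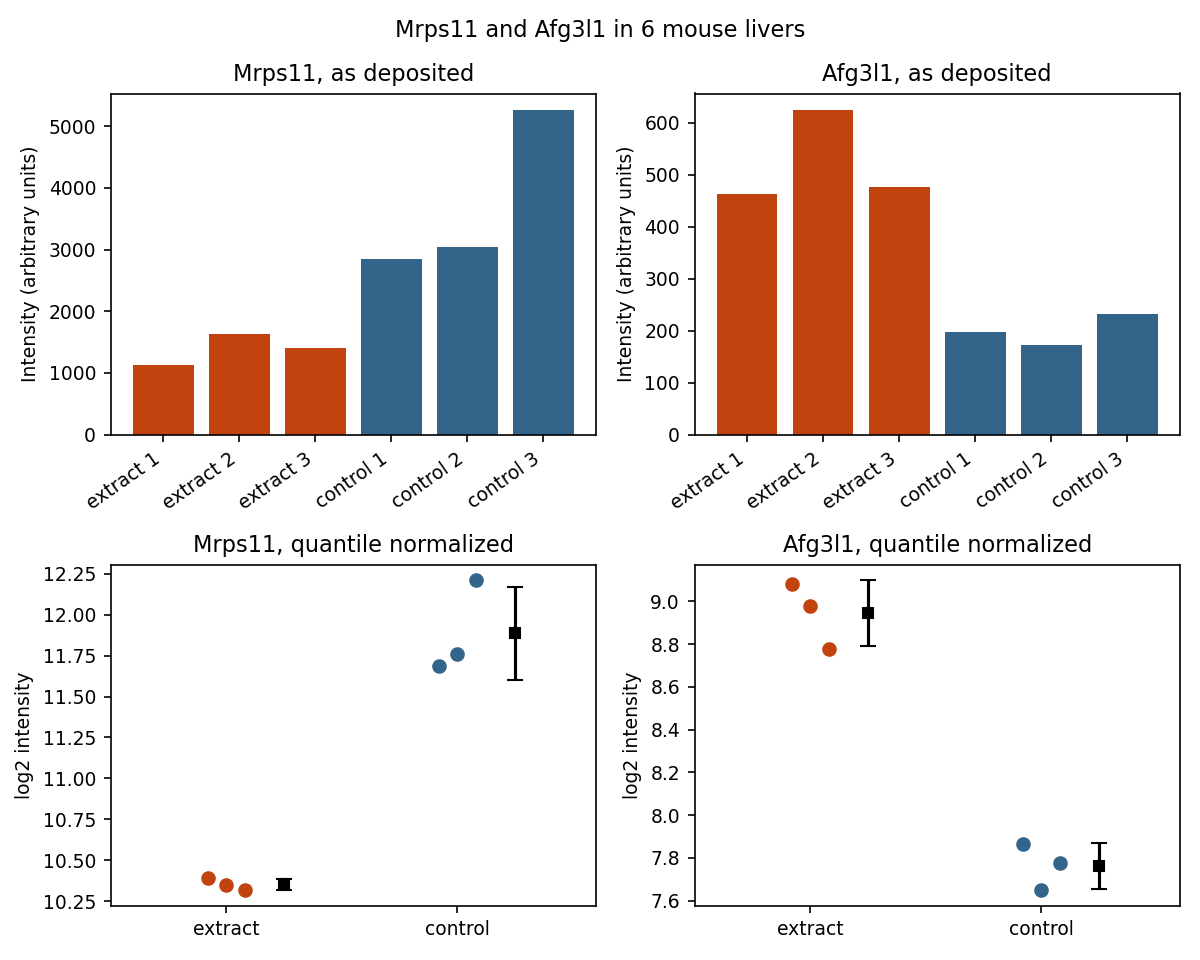
Mrps11 (left) and Afg3l1 (right) in 3 extract and 3 control livers. Bars (top) are deposited intensities per mouse, and points (bottom) are quantile-normalized log2 intensities per mouse, in order of replicate number, with squares and error bars for mean and SD (n = 3). Every extract mouse lies below every control for Mrps11 and above every control for Afg3l1, and control mouse 3 has the highest Mrps11 value, 5266.

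The background for these descriptions is a comparison of all features with limma, in which 0 of 45220 features (0%) passed an adjusted p of 0.05. Unadjusted p-values under 0.05 were given to 2313 features (5.11%), and a test with unequal variances and no moderation likewise left 0 after adjustment. Extract values lay below all controls without overlap for 550 of 9434 bright features (5.83%) and above all controls for 900 (9.54%). Without scaling the shares were 0.996% below and 14.1% above. Both genes were chosen on this contrast, so these shares stand beside their lack of overlap and nothing is read from them. A difference at least as low as that of Mrps11 was found for 12 bright features (0.127%), Mrps11 included, and one at least as high as that of Afg3l1 for 5 (0.053%), Afg3l1 included. Differences of bright features ran from -2.09 to 1.39 on the log2 scale.

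**Figure D2:**
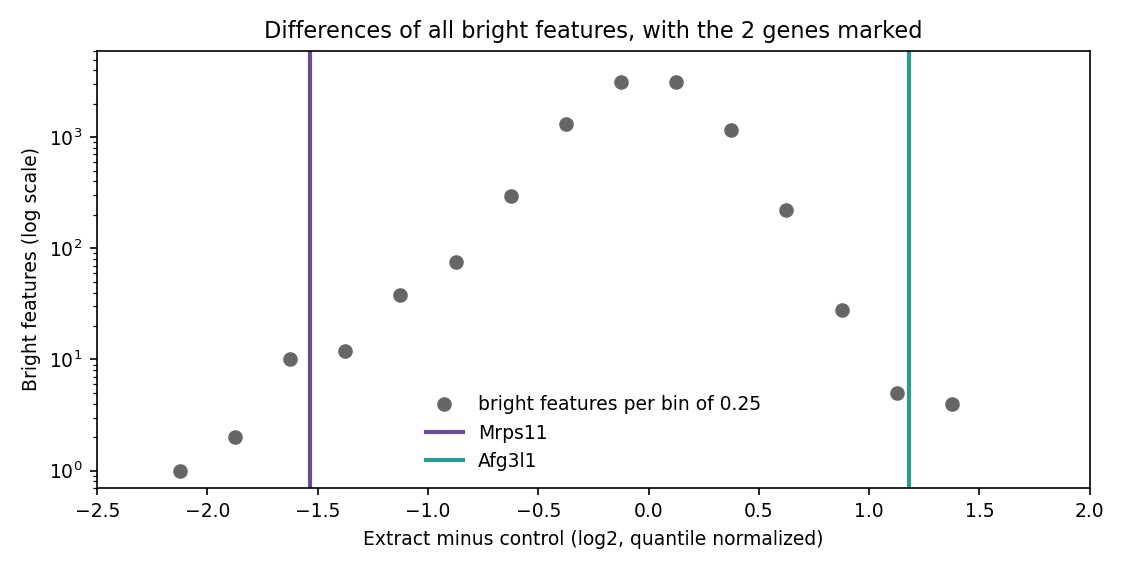
Number of bright features (log axis, points per bin of 0.25) by extract minus control difference (log2, quantile normalized), with vertical lines at Mrps11 and Afg3l1. Most features lie near 0, with Mrps11 at -1.53 toward the low end and Afg3l1 at 1.18 toward the high end of the range from -2.09 to 1.39.

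The sign of both differences was the same under all 6 scalings, while their sizes changed with the scaling. Without scaling the difference was -1.38 for Mrps11 and 1.37 for Afg3l1, at a median of 0.18 over bright features. Centring each array on its median gave -2.38 for Mrps11 and 0.37 for Afg3l1, and centring on the 75th percentile gave -2.38 and 0.38. Those 2 scalings put the median of bright features at -0.82 and -0.81. The values they centre on were lowest on control arrays 1 and 2. Array medians were 9, 5 and 8 on extract arrays 1, 2 and 3 against 3, 3 and 5 on control arrays 1, 2 and 3. Upper quartiles were 99, 123 and 111 against 41, 41 and 102, so control array 3 lay among the extract arrays. Under them the Afg3l1 groups overlapped by 0.35 and 0.16 log2 units, and the Mrps11 groups did not. With the 75th percentile of bright features the differences were -1.54 for Mrps11 and 1.22 for Afg3l1, close to those after quantile normalization.

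Relative to the median of bright features, the 4 settings that use 1 factor per array or none gave -1.56 for Mrps11 and 1.20 for Afg3l1. Quantile normalization gave -1.52 and 1.19 on that basis. A single factor per array cancels on that basis by construction, and quantile normalization came within 0.04 log2 units of it for both genes.

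The distance between the 2 genes on the same array is free of any factor common to that array. Its own level has no meaning across 2 probes, but its change between groups does. On the scale without factors, log2 Afg3l1 minus log2 Mrps11 was -1.28, -1.38 and -1.56 in extract mice 1, 2 and 3, against -3.85, -4.15 and -4.50 in control mice 1, 2 and 3. The means were -1.41 ± 0.14 in extract livers and -4.17 ± 0.32 in control livers (SD, n = 3 each). The change was 2.76 log2 units, or 6.77-fold, and 2.72 after quantile normalization. Since 1 gene was chosen for a lower and the other for a higher value on this contrast, the choice fixed the direction of this change, and it is given as a description only.

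Neighbouring features on an array can share a deviation, and this differed between the 2 genes. Features were placed by their number in rows of 85, and the local deviation was the median over neighbours in a square of 11 by 11 features. Neighbours were counted if they exceeded 100 on at least 4 of the 6 arrays, a looser rule than that for bright features. Around Mrps11 (23 neighbours) it was 0.074, 0.16 and -0.35 on extract arrays 1, 2 and 3, against -0.19, 0.34 and 0.064 on control arrays 1, 2 and 3. These values are mixed in sign within each group, with a difference of -0.11 between the group means. Around Afg3l1 (31 neighbours) it was 0.27, 0.089 and 0.076 on the extract arrays, against -0.076, -0.083 and -0.19 on the control arrays. There all 3 extract values lie above all 3 control values, in the direction of the gene itself, with a difference of 0.26. The share of features whose local deviations separate the groups in this way was not counted, so nothing is read from this separation.

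With the local deviations subtracted, Mrps11 differed by -1.43 and its SD was 0.25 among extract livers and 0.37 among control livers, so the close agreement of the extract livers was not kept. Afg3l1 differed by 0.92, against 1.18 before, with an SD of 0.096 among extract livers and 0.13 among control livers. The groups still did not overlap, and their nearest values were 0.76 log2 units apart for Mrps11 and 0.73 for Afg3l1.

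**Figure D3:**
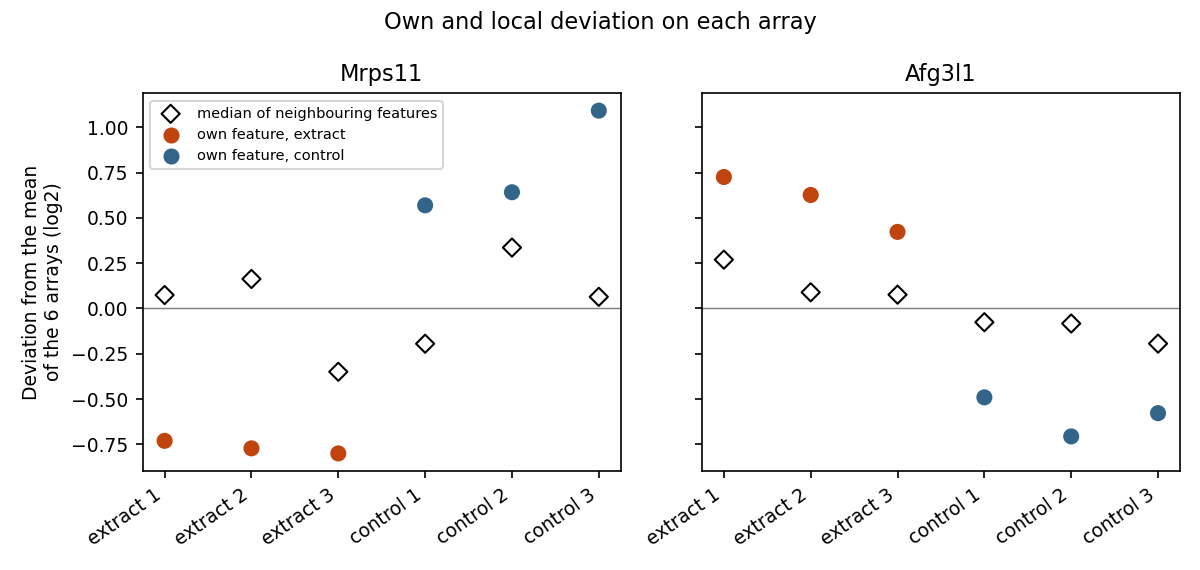
Deviation from the mean of the 6 arrays (log2) on each array for the gene's own feature (filled, coloured by group). Open diamonds give the median of its neighbours on the array that exceeded 100 on at least 4 of the 6 arrays. For Afg3l1 the neighbours deviate in the same direction as the gene, from 0.076 to 0.27 on extract arrays and from -0.19 to -0.076 on control arrays, and by less than the gene.

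No other gene of the mitochondrial pathways can be set beside them here. Lists were made of the mitochondrial ribosome, the mitochondrial proteases and their partners, mitochondrial translation and transcription, the respiratory chain, mitochondrial import, mitochondrial stress and the cytosolic ribosome. In these 7 lists, 0 named features remained once Mrps11 and Afg3l1 were set aside. Mrpl46, across the shared start region, and the genes of the other m-AAA subunits are not among the 122 named features. The authors' heading that holds both genes, on carbohydrate, lipid and protein metabolism, has 13 genes. Its 11 other genes differed by 0.24 to 0.82 (median 0.57), all higher in extract livers, and both members lie outside that range. Over all 122 named features the median difference was 0.60, against -0.010 for all bright features, with 113 higher and 9 lower in extract livers. Because that list was made from these same samples, its direction is no independent evidence. In the order of the 122 differences, Mrps11 stood 2nd from the low end and Afg3l1 2nd from the high end. Both were chosen by p-value on this same contrast, so nothing is read from these places or from the range of their heading.

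Genes with the most similar pattern were sought among the 113 other named bright features, by the root mean square difference over the 6 arrays of log2 values taken relative to the control mean. The nearest to Afg3l1 were Xkr5 at 0.19, the protein kinase gene Dyrk3 at 0.20 and Cabs1 at 0.27. Their differences were 0.92, 0.94 and 0.94, all below the 1.18 of Afg3l1. For Mrps11 the nearest were the zinc finger gene Zfp945 at 0.83, the smoothelin-like gene Smtnl2 at 1.01 and the pantetheinase gene Vnn1 at 1.06. In that order they differed by -2.09 (SE 0.61), -0.53 (SE 0.67) and -0.37 (SE 0.61). The groups of Smtnl2 and Vnn1 overlap, so their likeness to Mrps11 is slight. The group difference dominates this distance, and with 9 of the 122 named features lower in extract livers, few could lie near Mrps11.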

How the data were processed

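The authors deposited 1 intensity per feature and array, in whole numbers that reach below 0, from 1-colour Agilent arrays. Agilent Feature Extraction is named per the submitters' processing notes, and the sources used here do not give its version, the background correction or any scaling. Per the labels, 0.2 µg of RNA was labelled with Cy3. Gene names came from the authors' table through its feature number, and its 3 columns of ratios were not used. Of 122 accessions in that table, 111 were found in RefSeq (GRCm38.p6), all with the same symbol.

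Intensities were quantile normalized, values under 1 were set to 1, and log2 was taken. The 2 groups were compared by limma 3.58.1 in R 4.3.3 (lmFit and eBayes, two-sided, Benjamini-Hochberg adjustment over 45220 features). Differences are extract minus control, and SEs come from this fit. Simulated data with planted changes were used to check the median estimated difference, and the calling of features was not checked. The row length of 85 rests on deviations of features 85 apart, which correlated at 0.267 to 0.406. The median correlation at other distances was -0.026 to 0.085 per array, and distances close to 85 were not among them. Alternatives were other scalings, floors, filters, moderation, array weights, a replicate block and leaving out each array. Members, lists and tests were chosen with earlier results of these data known. The rule for named genes took the 2 members, the next named feature by p, the 3 named bright features nearest to each member, and members of the pathway and cell type lists. A kinase gene whose symbol begins like those of the cytosolic ribosome was not counted in that list.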

Additional observations from a re-analysis of the deposited data

How the results depend on the processing

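The differences of Mrps11 and Afg3l1 kept their sign under all 19 alternatives. For Afg3l1 that sign was not resolved with median centring (0.37, SE 0.40) or with the 75th percentile (0.38, SE 0.33), where its groups overlapped. Leaving out 1 array gave -1.63 to -1.37 for Mrps11, 1.12 to 1.27 for Afg3l1 and 2.55 to 2.87 for the change of their distance. Mrps11 moved by more than its pooled SD with median centring and with the 75th percentile (-2.38 each). Afg3l1 did so without scaling (1.37), with median centring (0.37), with the 75th percentile (0.38), with local deviations subtracted (0.92) and with an offset of 50 (1.02), and the change of the distance with local deviations subtracted (2.35).

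The 0 features past the adjusted threshold became 31 without scaling, 2 with a floor of 10, 1 with an offset of 50 and 4 when trend and robust eBayes were used on bright features. Leaving out 1 array gave 0 to 190, with 190 in the absence of extract mouse 1 and 41 in the absence of extract mouse 3. The 4021 of 45220 features without overlap became 6519 with the 75th percentile and 6196 when that percentile was taken over bright features. They became 6099 with local deviations subtracted. With a floor of 10 they became 2643, where more values are equal and equal values count as overlap. Of the 9434 bright features alone, 1450 had no overlap, a count over fewer features. With 1 array left out the count was 6533 to 7999, where fewer arrays make overlap rarer. The cause of the other changes was not tested. The replicate block gave 0 features and, in this balanced design, the same differences of -1.53 and 1.18. Deviations from the group means correlated between mice of the same number at 0.043, 0.15 and 0.25, each sample highest with its own number. Between mice of different numbers they correlated at -0.19 to 0.031. The pair at 0.043 lay under the limit of 0.1 used here, so the numbers were not taken to pair the mice. Whether the numbers mark a shared batch was not tested.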
